A study of Mus musculus with 2 samples.

Results

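The miRNA genes Mir335, Mir675, Mir483, Mir296 and Mir298, which lie at imprinted loci outside the Dlk1-Dio3 cluster, were examined in the embryonic facial prominence of mouse strain B6NCrl at embryonic day 14.5. They were chosen by position: Mir335 in Mest, Mir675 in H19, Mir483 in Igf2, and Mir296 and Mir298 beside Gnas. All 5 had a row among the 1973 miRNA gene rows. The rule uses position and no measured value, although the genes were picked with earlier results of these data known. MicroRNA sequencing was done on 2 biological replicates of this one group, so there was no contrast between conditions, genotypes or treatments. The labels call each sample the face of a single pup, with a different collection day for each, yet list the sex as pooled, so it is open whether 1 embryo or several went into a library. Replicate 1 had 2719153 counts on the strand of miRNA genes, and replicate 2 had 6602050.

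An imprinted gene is expressed mainly from the copy inherited from one parent. Mest and Igf2 are expressed from the paternal copy and H19 from the maternal copy, and Mir296 and Mir298 are known in the mouse as products of a paternally expressed transcript antisense to Gnas. The primary transcript of a miRNA folds into a hairpin, from which one or both arms are kept as mature miRNA, and bases 2 to 8 of the mature miRNA, the seed, do most of the target recognition. Igf2 and its locus promote fetal growth, while H19 and its miRNA are known to restrain it. The samples came from an inbred strain and the counts carry no parental origin, so imprinting itself was not measured.

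The mature sequences of the 5 genes are shown first because the counts cannot tell the arms of a hairpin apart, so each value below stands for both arms together. They were taken from RefSeq on build GRCm38.p6, where 5 of 5 genes matched, and are written 5′ to 3′ with the seed in capitals.
mmu-miR-335-5p: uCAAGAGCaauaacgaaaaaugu
mmu-miR-335-3p: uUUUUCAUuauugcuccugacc
mmu-miR-298-5p: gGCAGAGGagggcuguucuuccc
mmu-miR-298-3p: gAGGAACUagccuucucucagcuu
mmu-miR-296-5p: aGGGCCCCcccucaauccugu
mmu-miR-296-3p: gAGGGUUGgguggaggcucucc
mmu-miR-483-5p: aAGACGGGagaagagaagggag
mmu-miR-483-3p: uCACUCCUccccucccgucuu
mmu-miR-675-5p: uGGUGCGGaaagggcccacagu
mmu-miR-675-3p: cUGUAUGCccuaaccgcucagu

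The 10 mature miRNAs had 10 different seeds, so the genes form no seed family among themselves. None of the 10 seeds occurred in a mature miRNA of another gene in the RefSeq table. This was common: 68.0% of its 1738 mature entries had a seed found in 1 gene only. The mature sequences were 21 to 24 bases long. Those of Mir335 were poor in G and C, at 30.4% for the 5p arm and 36.4% for the 3p arm, and those of Mir296 were rich, at 66.7% for the 5p arm and 68.2% for the 3p arm.

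Hairpins of the genes with the highest and the lowest level are shown, with both mature arms in capitals.
Mir335 hairpin: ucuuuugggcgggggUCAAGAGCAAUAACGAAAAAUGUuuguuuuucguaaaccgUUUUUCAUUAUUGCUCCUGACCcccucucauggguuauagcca
Mir675 hairpin: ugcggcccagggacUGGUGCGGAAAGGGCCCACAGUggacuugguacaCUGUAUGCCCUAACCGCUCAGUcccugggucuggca
The Mir335 hairpin was 98 bases long with 42.9% G and C, and the Mir675 hairpin 84 bases with 63.1%. Mir298 had 53.7%, Mir483 58.9% and Mir296 63.3%. Across the 372 miRNA genes with a mean of at least 10 counts, the median was 50.2%, with quartiles at 43.9% and 56.1%.

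Sequence shared with another miRNA gene can remove reads from the counts, because reads with several genomic positions are not assigned. None of the 5 genes shared a stretch of 20 bases with another miRNA gene on either strand, against 97 of the 372 genes (26.1%). Such a match can also be an overlapping gene on the other strand, and the rest of the genome was not searched. The longest stretch that Mir335 shared with any other miRNA gene was 14 bases. For Mir483 it was 13, for Mir298 and Mir296 12, and for Mir675 11.

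Positions are given on assembly mm10. The Mir335 gene (ENSMUSG00000065501.1) spans chromosome 6, 30741299 to 30741396 on the plus strand, within an intron in each of the 7 Mest transcripts across it. Mir675 (ENSMUSG00000076275.1) spans chromosome 7, 142577064 to 142577147 on the minus strand, wholly in an exon in 3 of the 4 H19 transcripts across it. Mir483 (ENSMUSG00000070140.1) spans chromosome 7, 142654924 to 142654996 on the minus strand, within an intron in each of the 7 Igf2 transcripts across it, and also in an intron of the overlapping gene Gm49394. The gap between Mir675 and Mir483 is 77776 bases, and both are on the strand of their host genes. Mir296 (ENSMUSG00000065521.1) lies on chromosome 2 at 174267047 to 174267125 and Mir298 (ENSMUSG00000065410.1) at 174267504 to 174267585, both on the minus strand and 378 bases apart. Neither overlaps an annotated gene other than a miRNA gene. The nearest is Nespas, a noncoding transcript antisense to Gnas on the same strand, 14112 bases from Mir296 and 13652 from Mir298. No other miRNA gene row lay inside Mest, H19, Igf2, Gnas or Nespas, or within 5 kb of a member.

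Mir335 stood far above the other 4 genes. It held 154669 counts in replicate 1 and 307957 in replicate 2, which is 56881 and 46646 CPM (counts scaled to a library total of 1000000 gene-strand miRNA counts). In replicate 1 Mir335 took 5.69% of the counts (95% Wilson interval 5.66 to 5.72), at rank 3 of all miRNA genes, and in replicate 2 it took 4.66% (4.65 to 4.68), at rank 4. The mean was 51763 ± 7238 CPM (SD, n = 2), and the libraries did not overlap in their counting intervals. These intervals cover counting error only. In the mouse, miR-335-5p is known for lowering the Wnt antagonist Dkk1 in bone-forming cells. Host transcript and miRNA cannot be compared here, since only small RNA was sequenced.

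The pair at the Gnas locus came next. Mir298 had 13398 counts (4927 CPM) in replicate 1 and 32346 counts (4899 CPM) in replicate 2, averaging 4913 ± 19.7 CPM (SD, n = 2). Mir296 had 11167 counts (4107 CPM) in replicate 1 and 22391 counts (3392 CPM) in replicate 2, averaging 3749 ± 506 CPM (SD, n = 2). Mir298 was the higher gene in both libraries and the ranges of the pair did not overlap. Mir296 is known in the mouse as a miRNA that rises when embryonic stem cells differentiate, and Mir298 for acting on the mRNA of the secretase Bace1.

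Mir483 and Mir675 share the H19-Igf2 locus but were counted at very different levels. Mir483 had 8357 counts (3073 CPM) in replicate 1 and 18718 counts (2835 CPM) in replicate 2, averaging 2954 ± 168 CPM (SD, n = 2). Mir675, which in the mouse is known for restraining placental growth through the receptor Igf1r, had 245 counts (90.1 CPM) in replicate 1 and 547 counts (82.9 CPM) in replicate 2, averaging 86.5 ± 5.13 CPM (SD, n = 2). The 95% Wilson interval of Mir675 ran from 79.5 to 102 CPM in replicate 1 and from 76.2 to 90.1 CPM in replicate 2, so the libraries overlap. Both lay well above the limit that a count of 0 allows (3 counts), which is 1.10 CPM in replicate 1 and 0.454 CPM in replicate 2.

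**Figure D1:**
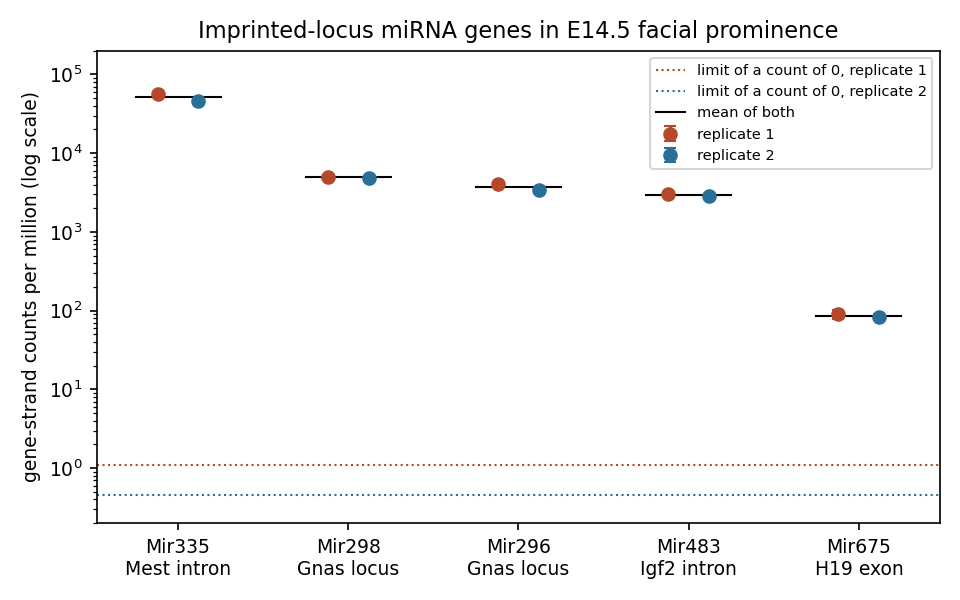
Gene-strand CPM (log scale) of the 5 genes in replicate 1 and replicate 2, with 95% Wilson intervals (smaller than most points), the mean of both as a bar and the limit of a count of 0 as dotted lines. Mir335 sits near 51763 CPM, Mir298, Mir296 and Mir483 between 2835 and 4927 CPM, and Mir675 at 90.1 and 82.9 CPM.

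From highest to lowest the order was Mir335, Mir298, Mir296, Mir483 and Mir675, and it was the same in both libraries. The mature sequences differ little in length (21 to 24 bases), so these levels were not scaled by length. The lengths of the reads were not examined. Adapter ligation favours some small RNAs over others, and its part in the order was not tested. Mir335 was 11.5-fold above Mir298 in replicate 1 and 9.52-fold in replicate 2. Mir298 was 1.20-fold and 1.44-fold above Mir296, and Mir296 1.34-fold and 1.20-fold above Mir483. For each of these neighbours in the order the ranges did not overlap, although the gap between Mir296 and Mir483, 795 CPM, was close to the sum of their SDs, 674 CPM. Mir483 was 34.1-fold above Mir675 in replicate 1 and 34.2-fold in replicate 2.

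Among the 717 miRNA genes with at least 1 count, Mir335 was exceeded by 2 genes, Mir298 by 42, Mir296 by 53, Mir483 by 62 and Mir675 by 207. The median level of these 717 genes was 2.67 CPM, and all 5 genes were above it. Among the 372 genes with a mean of at least 10 counts the median was 161 CPM. Mir335, Mir298, Mir296 and Mir483 were above that median and Mir675 was below it. Of the 372 genes 97 (26.1%) share a stretch of 20 bases with another miRNA gene and can lose reads, while none of the 5 genes does. The ranks and the shares of all counts make no allowance for this, and its part was not tested. In bulk tissue, a low level in few cells and in many cells, or fewer cells of a type and less RNA per cell, cannot be told apart.

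By locus, Mir335 at Mest gave 82.3% of the counts of the 5 genes in replicate 1 and 80.6% in replicate 2. The Gnas pair gave 13.1% and 14.3%, and the H19-Igf2 pair 4.58% and 5.04%. Summed levels were 8662 ± 525 CPM at Gnas and 3041 ± 174 CPM at H19-Igf2 (SD, n = 2).

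Set beside the 2 large imprinted miRNA clusters of the mouse, the share of the 5 genes rested mostly on Mir335. Together they held 6.91% of all gene-strand counts in replicate 1 (95% Wilson 6.88 to 6.94), against 5.79% in replicate 2 (5.77 to 5.80). The 59 rows between Dlk1 and Dio3 held 12.9% in replicate 1 and 12.8% in replicate 2. The 107 rows inside Sfmbt2, a gene with a large rodent-specific miRNA cluster, held 0.579% and 0.541%. The 5 genes thus had 53.7% of the Dlk1-Dio3 counts in replicate 1 and 45.0% in replicate 2, and 11.9-fold and 10.7-fold the Sfmbt2 counts. Without Mir335, the other 4 genes held 1.22% of all counts in replicate 1 and 1.12% in replicate 2. That is 9.49% and 8.72% of the Dlk1-Dio3 counts, and 2.11-fold and 2.07-fold the Sfmbt2 counts.

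By gene-strand counts, Mir335 was above every Dlk1-Dio3 gene. The highest there were Mir411, at 23037 CPM in replicate 1 and 25773 CPM in replicate 2, and Mir487b, at 18986 and 23713 CPM. Of the 59 Dlk1-Dio3 rows 8 were above Mir298, 9 above Mir296, 10 above Mir483 and 40 above Mir675. In Sfmbt2 the highest were Mir467d, at 2209 and 2301 CPM, and Mir467e, at 1393 and 1002 CPM. None of the Sfmbt2 rows was above Mir483 and 6 were above Mir675. Of the Sfmbt2 rows 105 of 107 share a stretch of 20 bases with another miRNA gene, and of the Dlk1-Dio3 rows 14 of 59, either at another position, where reads can be lost as multiply placed, or in an overlapping gene on the other strand. How much this lowers the sums was not tested.

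**Figure D2:**
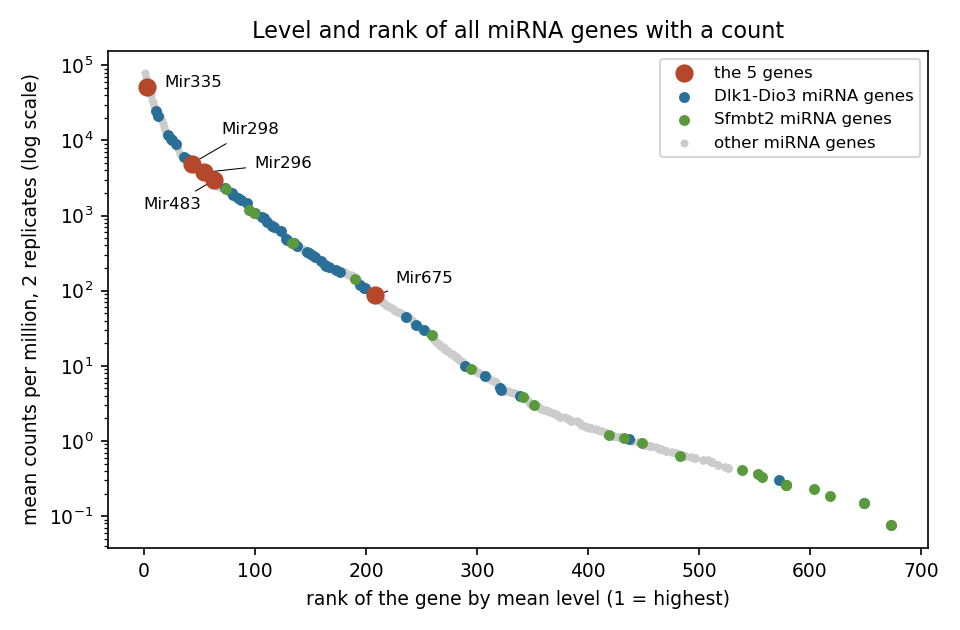
Mean CPM (log scale) of the miRNA genes with a count against their rank, with the 5 genes in red, the Dlk1-Dio3 genes in blue, the Sfmbt2 genes in green and all others in grey. Mir335 lies at rank 3, Mir298, Mir296 and Mir483 at ranks 43, 54 and 63, and Mir675 at rank 208.

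The reads of the 5 genes lay on the strand of the gene. On the opposite strand Mir335 had 1 read in replicate 1 and 4 in replicate 2, and the other 4 genes had 0 in both. Of the reads opposite to Dlk1-Dio3 rows, 60464 in replicate 1 and 147973 in replicate 2, nearly all (60445 and 147920) lay in 4 minus-strand rows with 19 and 50 gene-strand counts between them. Each of these 4 rows overlaps an annotated plus-strand miRNA gene for which no row was analysed here, so the gene-strand Dlk1-Dio3 sums do not hold those reads. In replicates 1 and 2 they came to 6994 and 9510 CPM over Mir409 and 8285 and 6558 CPM over Mir376a. Over Mir299a they came to 3913 and 3445 CPM, and over Mir380 to 3037 and 2892 CPM. The ranks given above, and the numbers of genes above Mir298, Mir296, Mir483 and Mir675, leave these reads out. Over all rows, both strands together held 2844140 counts in replicate 1 and 6899892 in replicate 2, against 2719153 and 6602050 on the gene strand. Only part of that excess lay in Dlk1-Dio3 rows. Some rows elsewhere also had opposite-strand reads and no gene-strand count. How far those reads bear on the ranks among all genes was not tested.

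The 2 libraries were then compared gene by gene by an exact two-sided binomial test of their counts, scaled by TMM (a trimmed mean of log ratios between libraries) with Benjamini-Hochberg adjustment over 372 genes. This compares 2 libraries, not conditions, and allows for counting error only. Of the 5 genes 2 were higher and 1 lower in replicate 1, where the test called 52.2% of all tested genes, 24.7% higher and 27.4% lower. A share of 3 in 5 is near that background and is no result about the 5 genes. Scaled by library totals instead, the test called 53.0%, of which 35.8% of the tested genes were higher and 17.2% lower, and of the 5 genes 3 were higher and 0 lower.

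The differences were small. For Mir335 the log2 ratio, replicate 1 over replicate 2, was 0.16 (counting SE 0.0045, adjusted p = 6.58e-275). For Mir296 it was 0.15 (counting SE 0.017, adjusted p = 1.51e-18). For Mir298 it was -0.12 (counting SE 0.015, adjusted p = 6.90e-15). Mir483, at -0.0091 with a counting SE of 0.019, and Mir675, at -0.0029 with a counting SE of 0.11, did not pass (adjusted p = 0.751 and 1). For Mir675 the counts allow differences from -0.22 to 0.21.

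With TMM, the absolute log2 ratio of all 5 genes was below the median of the 372 tested genes, 0.25. That median takes in genes down to a mean of 10 counts, where counting error is larger than in Mir335, Mir298, Mir296 and Mir483. The median ratio of the 5 genes was -0.0029, against 0.017 over all tested genes. The scaling decides the sign of the smaller differences. Total counts in place of TMM raise every log2 ratio by 0.13, and Mir298 then stood at 0.0082, Mir483 at 0.12 and Mir675 at 0.12, while Mir335 at 0.29 and Mir296 at 0.28 stayed positive. In the exact binomial test with total counts, Mir298 no longer passed (adjusted p = 0.686) and Mir483 did, as higher in replicate 1 (adjusted p = 3.78e-09). Of the tested genes, those with a G and C content above the median had a median log2 ratio of -0.014 and the others 0.055; the part of base composition in the values of the 5 genes was not tested.

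**Figure D3:**
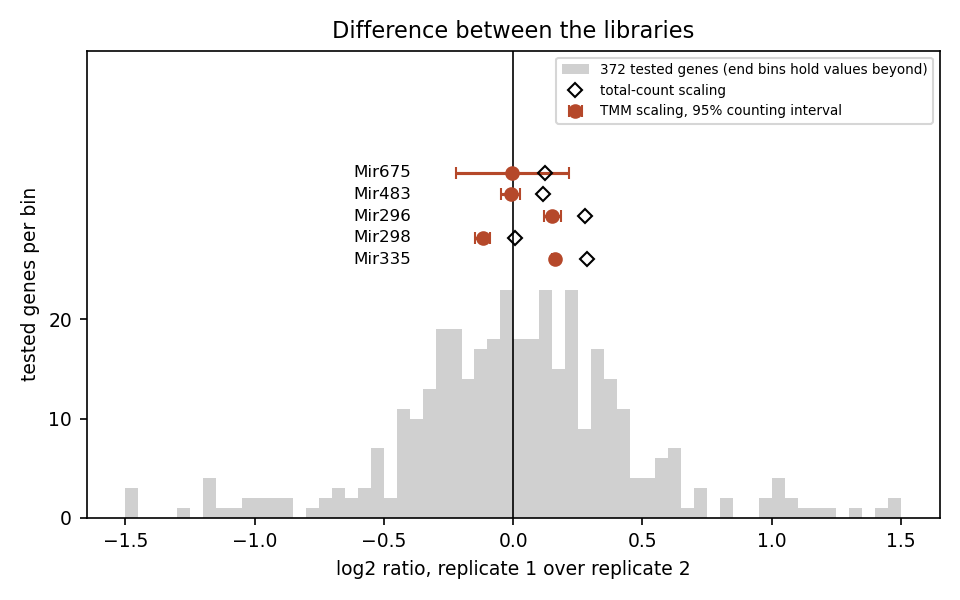
Log2 ratio, replicate 1 over replicate 2, of the 372 tested genes (grey bars, genes per bin) and of the 5 genes, with TMM scaling (filled points with 95% counting intervals) and with total counts (open diamonds). The 5 genes lie between -0.12 and 0.16 with TMM, inside the bulk of all genes.

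Ratios between members within a library need no scaling between libraries. Of the 10 pairs of members, 5 had a ratio that differed between the libraries by more than 2 counting SEs. Depth bears on this number. Every pair with Mir675 had a counting SE of 0.11, so even the 0.16 of Mir335 over Mir675 stayed within 2 SEs. Among the pairs without Mir675, only Mir335 and Mir296 stayed within 2 SEs. Mir335 and Mir296, on different chromosomes, kept their proportion: log2 of Mir335 over Mir296 was 3.79 in replicate 1 and 3.78 in replicate 2, a difference of 0.010 with a counting SE of 0.017. Mir483 over Mir675 was 5.09 and 5.10, a difference of -0.0062 with a counting SE of 0.11. The neighbours Mir296 and Mir298 did not keep theirs.

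Mir296 made up 45.5% of the reads of the Gnas pair in replicate 1 (95% Wilson 44.8 to 46.1), against 40.9% in replicate 2 (40.5 to 41.3). Log2 of Mir296 over Mir298 was -0.26 in replicate 1 and -0.53 in replicate 2, averaging -0.40 ± 0.19 (SD, n = 2). The difference of 0.27 was large against its counting SE of 0.022. This is a difference between 2 libraries of one group, and no test against the spread between samples was possible. As a description chosen after the values were seen, the same difference was computed for all 65 pairs of neighbouring tested genes on one strand at most 1000 bases apart. Its median was 0.24, and 31 of the 64 other pairs (48.4%) differed at least as much as Mir296 and Mir298. Where every gene had at least 1000 counts in each library, it was 9 of 22 other pairs. In level the pair was close. The higher over the lower was 1.31-fold, against a median of 6.76-fold, and 6 of the 64 other pairs were closer.

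**Figure D4:**
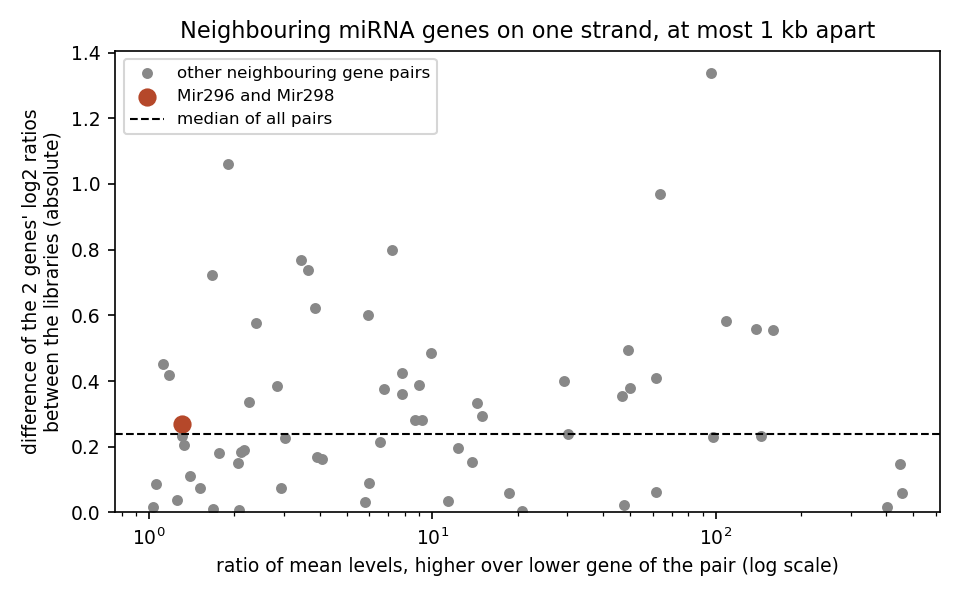
For 65 pairs of neighbouring miRNA genes on one strand, the absolute difference of their log2 ratios between the libraries against the ratio of their mean levels (log scale), with Mir296 and Mir298 in red and the median of all pairs dashed. The Gnas pair lies at 1.31-fold and 0.27, near the median difference of 0.24.

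The genes nearest to each member in level were found by the distance of log2 of CPM plus 1 over the 2 libraries, a measure of likeness over 2 samples only. For Mir335 these were Mirlet7g, at 43892 CPM in replicate 1 and 37906 CPM in replicate 2 (distance 0.48), and Mir126a, at 41674 and 54165 CPM (0.50). For Mir298 they were Mir382, at 4856 and 4696 CPM (0.065), and Mir200c, at 5148 and 5141 CPM (0.094). For Mir296 they were Mir151 (0.10) and Mir30d (0.11), for Mir483 Mir181d (0.16) and Mir27b (0.23), and for Mir675 Mir146 (0.099) and Mir345 (0.10). None of these lies within 5 kb of a member.

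The tissue label was checked against markers. Facial mesenchyme markers summed to 17643 CPM in replicate 1 and 12119 CPM in replicate 2 (4 of 4 detected, led by Mir214), and epithelial markers to 52450 and 67435 CPM (7 of 7, led by Mir203). Cartilage markers summed to 43454 and 41703 CPM (2 of 2, led by Mir140), endothelial Mir126a stood at 41674 and 54165 CPM, and striated muscle markers at 11714 and 13351 CPM (5 of 5 with a row, led by Mir206). Blood markers summed to 1614 and 2096 CPM (3 of 3, led by Mir451a). Neural markers summed to 937 and 720 CPM (3 of 7, led by Mir137), with Mir9-2 and 3 copies of Mir124a at 0. Each of these 4 shares a stretch of 20 bases with another miRNA gene, so its reads can be lost as multiply placed, and a 0 there gives no reading of neural tissue. Liver Mir122 was at 12.5 and 5.60 CPM, and markers of placenta and pluripotent cells summed to 179 and 124 CPM (5 of 7, led by Mir302a, with Mir367 and Mir290a at 0, of which Mir290a shares such a stretch). Such stretches occur in 3 of 4 mesenchyme, 4 of 5 striated muscle, 1 of 3 blood and 6 of 7 neural genes, and in Mir126a. In the epithelial and cartilage lists the number is 0. A stretch can lie at another position, where reads can be lost, or in an overlapping gene on the other strand. The sums are therefore not comparable between lists, and the loss was not tested. The part of tissue proportions in the differences of the 5 genes between the libraries was not tested.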

How the data were processed

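The deposited values were raw read counts per miRNA gene, 1 library per file and not pooled. Per the deposited metadata text, the assembly was mm10 and the annotation GENCODE M4; for the aligner and trimming, no source used here names a tool. The gene-strand column was used, and the 4 summary rows were left out of totals. All reads numbered 5617037 in replicate 1 and 13380839 in replicate 2; 29.8% and 28.5% had several positions and are not in the counts. Symbols and positions came from GENCODE M21 by gene identifier (1894 of 1973 named).

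CPM used the gene-strand total. For genes with a mean of at least 10 counts, TMM (edgeR 4.0.16) and an exact binomial test (scipy 1.17.1) compared the libraries. The prior was 0.5 counts and the threshold 0.05 after Benjamini-Hochberg adjustment. The test was run on simulated counts with counting error only, where it called 4.65% of 172 genes with no difference. That simulation holds no spread between samples, so it does not bear on the calls in the real libraries beyond counting error. Intervals are 95%. The rule for named genes took the members, their 2 nearest genes in level and genes sharing a seed (none did). It also took the 2 highest of each imprinted cluster and the highest of each marker list. Markers at 0, named after their values were seen, and Mirlet7i, left out of the total in an alternative, fall outside the rule. So do Mir409, Mir376a, Mir299a and Mir380, which were named for the opposite-strand reads of the rows that overlap them. Dlk1-Dio3 and Sfmbt2 genes were taken by position. Alternatives covered the count column, scaling (DESeq2 1.42.0), prior, filter, depth and each replicate left out. Members and lists were chosen with earlier results of these data known. The p-values set 1 library against 1 and cover counting error only, with no spread between samples.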

Additional observations from a re-analysis of the deposited data

How the results depend on the processing

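The calls of Mir335 and Mir296 held under every alternative run. A change of scaling multiplies all 5 genes of a library by the same factor, so it cannot alter their order. The unstranded column added 1 read in replicate 1 and 4 in replicate 2 to Mir335 and none to the others. The order could thus differ only between the 2 libraries, and it was the same in both. With all reads of the library as denominator, levels were 25275 CPM for Mir335, 2401 for Mir298, 1831 for Mir296, 1443 for Mir483 and 42.2 for Mir675. With DESeq2 size factors they were 46898.5 CPM for Mir335, 4471 for Mir298, 3397 for Mir296, 2684 for Mir483 and 78.5 for Mir675. Without Mirlet7i in the total they were 56116, 5329, 4064, 3204 and 93.8 CPM in the same order. The unstranded column gave 49507, 4699, 3586, 2826 and 82.7 CPM in the same order. With that column the Dlk1-Dio3 share, which then takes in the opposite-strand reads of the 4 overlapped rows, was 14.4%. Total counts turned the log2 ratios of Mir298 (0.0082), Mir483 (0.12) and Mir675 (0.12), and called 133 genes higher and 64 lower in replicate 1, against 92 and 102 with TMM. Mir483 stood at 0.0071 at a mean of at least 100 counts, 0.018 at equal depth and -0.057 with no filter, where it passed the test (exact binomial, adjusted p = 0.0123). Mir675 stood at 0.013 at a mean of at least 100 counts, 0.081 at equal depth and 0.0019 with a prior of 2 counts; that prior put Mir483 over Mir675 at 5.09. The filter also sets the genes from which TMM is taken. No paired analysis was possible because there is 1 group. With 2 libraries, leaving one out leaves a value with no test, as given per replicate above. Depth limits Mir675 most, at 245 and 547 counts.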
